A study of Mus musculus with 41 samples.

Results

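The Acan domain is a stretch of 300 kb on mouse chromosome 7 (build mm9, 86.0 to 86.3 Mb) that holds the aggrecan gene Acan, given as lying from about 86.198 to 86.26 Mb, and 198 kb of DNA before its start. Its members were all peaks, in 8 lists of transcription factor binding sites, whose centre lay in this stretch: 66 of 155773 peaks. The domain was selected on the number of peaks that earlier results of these lists had shown there, so its peak counts are a description and carry no test. The lists came from chromatin immunoprecipitation with sequencing (ChIP-seq), in which DNA bound by a protein is precipitated with an antibody, sequenced and reduced to the regions where reads pile up. Runx2 was precipitated through a FLAG tag from chondrocytes of the ribs and osteoblasts of the calvaria in heterozygous Runx2-BioFL/+ knock-in mice (C57BL/6, postnatal day 1, 2 libraries for each cell type, 1 list each). Foxa2 came from wild-type C57BL/6 rib chondrocytes and Jun from wild-type C57BL/6 calvarial osteoblasts, both at postnatal day 1 (1 library each). The other 4 lists, of 1 library each, came from FLAG precipitation of 3T3 cells, a mouse fibroblast line, that overexpressed either Runx2BioFL or green fluorescent protein (GFP, the background control). They were taken at day 0 and following 3 days of osteogenic medium, which contained BMP-2 at 100 ng/ml, β-glycerophosphate at 10 mM and ascorbic acid phosphate at 50 μg/ml. The cells were taken by dissection and enzyme digestion of whole tissue, so the primary lists may include neighbouring cell types. No expression was measured here that could check this against marker genes. All chondrocytes were from rib and all osteoblasts from calvaria, so cell type and skeletal site cannot be told apart.

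Each list gave positions only, with no score, height or read count, and read depth is not given in the sources used here. With 1 list per group there was no replicate error, and no difference between lists could be tested. The lists held between 2475 peaks (3T3 GFP day 0) and 50180 peaks (3T3 Runx2 day 3), so counts are also given per 10000 peaks of a list. The labels of 2 of the 3T3 lists were crossed, since the sample of Runx2 at day 0 cites the file with the GFP day 3 name and the sample of GFP at day 3 cites the file with the Runx2 day 0 name. Both are called here by their file names, and the counts and the chondrocyte Runx2 share that depend on this are also given with the names exchanged. All other values of these lists follow the file names. Intervals are Wilson 95% intervals for the counting error of a share. They do not cover animals or cultures, and neighbouring peaks are not independent.

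Acan encodes aggrecan, the large chondroitin sulphate proteoglycan of cartilage, which binds hyaluronan and gives the tissue its resistance to compression. Its transcription in chondrocytes is driven by Sox9 with Sox5 and Sox6, acting through enhancers that lie far upstream of the promoter and inside the gene. Runx2 is required for osteoblast formation and also promotes chondrocyte hypertrophy, the last stage of cartilage before bone. Foxa2 is a forkhead factor that takes part in hypertrophic differentiation, and Jun is a subunit of AP-1, a factor common at enhancers of fibroblasts and osteoblasts. In the order of protein-coding genes in the RefSeq table (GRCm38.p6), the neighbour before Acan is Isg20, an interferon-induced exonuclease, and the neighbour after it is Hapln3, a link protein of hyaluronan and proteoglycans. That table is of another build than the peaks, so no peak was assigned to a neighbour.

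The promoter of Acan is shown because a chondrocyte Runx2 peak spanned the given start of the gene. The sequence holds the 250 bases before the RefSeq start (GRCm38.p6, chr7:79052976-79053225, plus strand), a build other than that of the peaks, and capitals mark matches to the GC box GGGCGG or its reverse complement CCGCCC:
Acan promoter: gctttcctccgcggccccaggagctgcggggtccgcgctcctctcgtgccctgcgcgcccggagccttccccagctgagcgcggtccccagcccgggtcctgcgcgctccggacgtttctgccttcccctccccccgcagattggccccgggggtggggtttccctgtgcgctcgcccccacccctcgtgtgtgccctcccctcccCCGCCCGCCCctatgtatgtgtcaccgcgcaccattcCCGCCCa
The window was 74.4% G or C, against a median of 52.4% over 32851 promoter windows of the same length, and held 26 CG dinucleotides against a median of 6.00. The GC box matched 3 times, with 2 of the matches overlapping, and 32.7% of all windows held at least 1 match. The motif was chosen after the sequence was seen. Searched on both strands, the RUNX core TGTGGT, the AP-1 site TGANTCA and the FOX site TGTTTAC had 0 matches in this window, and 14.0%, 6.75% and 3.17% of all windows held them. The sequence under the peaks themselves was not analysed here.

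Chondrocyte lists supplied most of the domain's peaks. Chondrocyte Runx2 had 25 peaks there of 15390 in its list (16.2 per 10000) and chondrocyte Foxa2 17 of 14738 (11.5 per 10000). Osteoblast Runx2 had 5 of 10241 (4.88 per 10000), and osteoblast Jun had 0 of 14937. Among the 3T3 lists, Runx2 day 0 had 5 of 31013 (1.61 per 10000) and Runx2 day 3 had 13 of 50180 (2.59 per 10000). The GFP controls had 0 of 2475 at day 0 and 1 of 16799 at day 3 (0.595 per 10000). For a count of 0, a bound of 3 counts is 12.1 per 10000 for GFP day 0 and 2.01 per 10000 for Jun. The 0 of the small GFP day 0 list thus does not show a lack of background. The chondrocyte lists thus had more peaks in the domain than the larger 3T3 lists, also without scaling by list size. With the crossed lists exchanged, 3T3 Runx2 day 0 would have 1 peak in the domain and GFP day 3 would have 5.

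**Figure D1:**
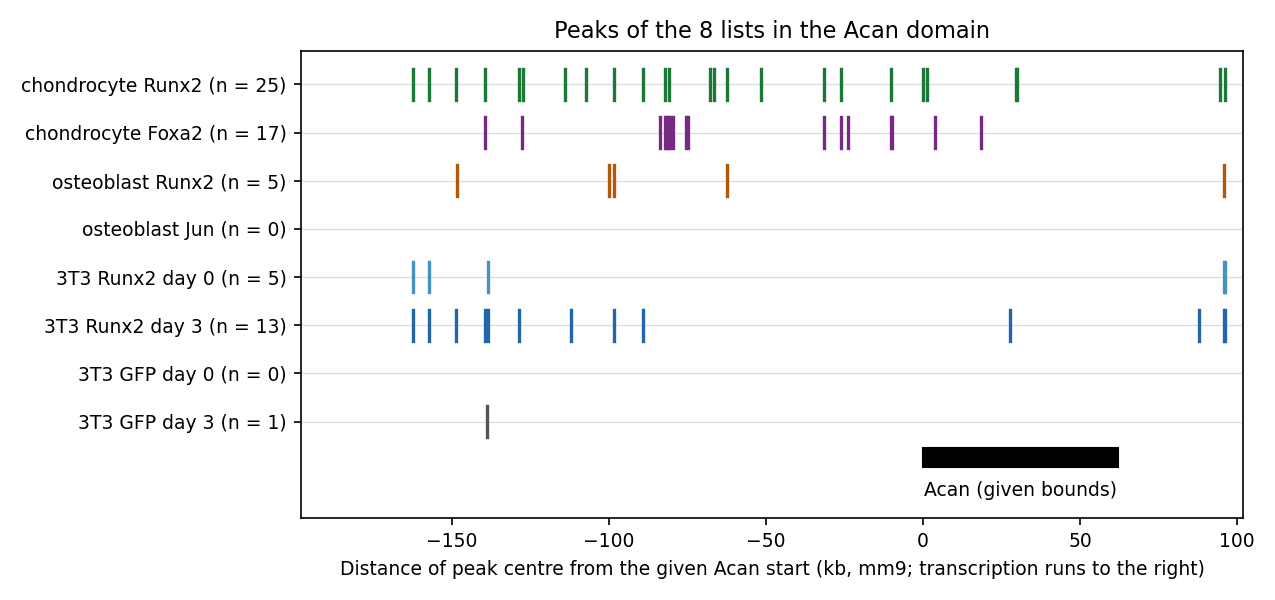
Each vertical line is the centre of a peak (x axis, kb from the given start of Acan, with transcription to the right), 1 row per list with its number of peaks in the domain, and the black bar is the gene by its given bounds. Before the start lie 20 of the 25 chondrocyte Runx2 and 15 of the 17 Foxa2 peaks. The 3T3 Runx2 peaks lie far upstream and beyond the gene, with 1 peak inside it.

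Most peaks lay before the gene. Of the chondrocyte Runx2 peaks, 20 of 25 were centred before the given start (80.0%, 60.9 to 91.1%), 3 in the gene and 2 after it. Of the Foxa2 peaks, 15 of 17 were before the start (88.2%, 65.7 to 96.7%) and 2 in the gene. Of the osteoblast Runx2 peaks 4 lay before the gene, 0 in it and 1 after it. For scale, the upstream DNA makes up 198 kb of the domain, the gene 62 kb and the DNA after it 40 kb. Merging peaks that shared at least 1 bp gave 42 sites. Of these 27 held a peak of 1 list, 9 of 2 lists, 5 of 3 lists and 1 of 4 lists, and 36 held a peak from chondrocytes.

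In the farthest upstream part, from 162 to 89.1 kb before the start, 6 of 10 chondrocyte Runx2 peaks overlapped a 3T3 Runx2 list (58.6% over the whole chondrocyte list). Another 3 overlapped no other list (21.3% over the whole list). This part was set after the values were seen, to end at the last 3T3 Runx2 peak before a stretch without them. That choice favours overlap with the 3T3 lists, so nothing is read from these shares. The first site (chr7:86035613-86035806, 162 kb before the start) and the next (chr7:86040542-86040743, 157 kb before) each held chondrocyte Runx2 and 3T3 Runx2 of both days. At 149 kb before the start, a chondrocyte peak (chr7:86049398-86049485) overlapped osteoblast Runx2, and a 3T3 Runx2 day 3 peak ended just beside them without overlap. At 139 kb before the start, chr7:86058531-86058714 held chondrocyte Runx2, Foxa2 and 3T3 Runx2 day 3, and was the domain's sole site with both Foxa2 and a 3T3 peak. Its close neighbour, chr7:86059054-86059610, held no peak from primary cells: it joined 3T3 Runx2 of both days with the domain's single GFP peak (chr7:86059054-86059411). Sites at 129 kb (chr7:86069370-86069576) and 89.1 kb (chr7:86108888-86108999) paired chondrocyte Runx2 with 3T3 Runx2 day 3. At 98.2 kb before the start, chr7:86099648-86099883 held Runx2 of chondrocytes, of osteoblasts and of 3T3 cells at day 3.

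A stretch without 3T3 Runx2 peaks, identified after the values were seen, ran from 89.0 kb before the start to 27.8 kb after it. Of its 11 chondrocyte Runx2 peaks, 5 overlapped Foxa2 (18.3% over the list) and 1 overlapped osteoblast Runx2 (29.9% over the list). Another 5 overlapped no other list (21.3% over the list), a count that the choice of a stretch without 3T3 Runx2 peaks favours. The stretch held 15 Foxa2 peaks and 1 osteoblast Runx2 peak, so the overlaps with these lists follow in part from where their peaks lie. Foxa2 peaks were densest between 83.7 and 74.9 kb before the start, where 8 of the 17 lay. This group held the widest Foxa2 peak of the domain (chr7:86114109-86114519, 411 bp) and chondrocyte Runx2 peaks at chr7:86115904-86116062 and chr7:86116971-86117062, each of which overlapped a Foxa2 peak. The remaining sites of both factors followed towards the promoter, at 31.5 kb (chr7:86166398-86166570), 26.2 kb (chr7:86171677-86171930) and 10.3 kb before the start (chr7:86187588-86187797). The Foxa2 peak at 10.3 kb (chr7:86187661-86187763) stood at position 753 of its file, earliest of the domain's Foxa2 peaks. Together with the site at 139 kb, 6 sites in the domain held both factors.

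The chondrocyte Runx2 peaks at chr7:86130228-86130376, chr7:86131201-86131484 and chr7:86146317-86146427, 67.7, 66.7 and 51.6 kb before the start, overlapped no other list. The Runx2 peak that stood earliest in the chondrocyte file also lay outside the sites of both factors. It lay 62.5 kb before the start (chr7:86135393-86135540, 148 bp), at position 399 of 15390, and overlapped the osteoblast Runx2 peak chr7:86135412-86135495, which was also the earliest osteoblast peak of the domain (position 4585 of 10241) and the osteoblast peak nearest to the gene start. No Foxa2 or 3T3 peak overlapped it. The widest chondrocyte Runx2 peak (chr7:86083937-86084357, 421 bp, 114 kb before the start) overlapped no other list, nor did the peaks on either side of it at chr7:86070579-86070757 and chr7:86090548-86090721.

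At the gene itself, chondrocyte lists held nearly all peaks. A Runx2 peak of 386 bp (chr7:86197807-86198192) spanned the given start, and no peak of another list overlapped it. The gene body held chondrocyte Runx2 peaks at chr7:86227647-86227850 and chr7:86227892-86228117, 29.7 and 30.0 kb after the start, and 1 of only 5 bp at chr7:86199306-86199310. Foxa2 peaks lay at chr7:86201655-86201749, 3.70 kb after the start and the nearest to it of that list, and at chr7:86216317-86216462, 18.4 kb after the start. None of these overlapped another list. The sole peak from other cells in the gene was 3T3 Runx2 day 3 at chr7:86225830-86225848, 19 bp wide and 27.8 kb after the start. Peaks under 20 bp made up 0.305% of the chondrocyte Runx2 list and 0.775% of the 3T3 Runx2 day 3 list, so both narrow peaks are rare kinds of entry. An annotation of exons in this build was not used here, so exon or intron is not given.

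Beyond the gene lay the site of the domain with the most lists. At chr7:86293704-86294135, 95.9 kb after the start, 6 peaks of 4 lists met: chondrocyte Runx2, osteoblast Runx2 and, with 2 peaks on each day, 3T3 Runx2 of day 0 and day 3. The widest 3T3 peaks of the domain were here, with 366 bp at day 0 (chr7:86293704-86294069) and 332 bp at day 3 (chr7:86293734-86294065), as was the 3T3 day 3 peak earliest in its file (chr7:86293956-86294135, position 13459 of 50180). The earliest 3T3 peak of day 0 was the far upstream one at chr7:86040548-86040709 (position 7128 of 31013). The widest osteoblast peak of the domain, chr7:86097834-86098278 (445 bp, 99.9 kb before the start), was also the osteoblast peak that overlapped no other list.

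The sharing of chondrocyte Runx2 peaks with each other list was set beside the same share over the whole chondrocyte list, counting any overlap of at least 1 bp. Foxa2 overlapped 6 of 25 domain peaks (24.0%, 11.5 to 43.4%), against 18.3% over the list, and osteoblast Runx2 overlapped 4 of 25 (16.0%, 6.40 to 34.7%), against 29.9%. The whole-list values lay within both intervals. Jun overlapped 0 of 25 peaks (0%, 0 to 13.3%), against 17.8% over the list. By the other bound used for a count of 0, 3 counts of the total, 0 of 25 allows a share of up to 12.0%. The domain held 0 Jun peaks, so no overlap was possible and these values only restate that count. 3T3 Runx2 day 3 overlapped 7 of 25 (28.0%, 14.3 to 47.6%), against 52.7%, and 3T3 Runx2 day 0 overlapped 3 of 25 (12.0%, 4.17 to 30.0%), against 48.2%. For both 3T3 Runx2 lists the share over the whole list lay above the interval. The domain held only 5 peaks of day 0 and 13 of day 3, which limits how many of the 25 could be overlapped. Nothing is therefore read from the position of these intervals. Neither GFP list overlapped any of the 25 peaks, against 2.86% of the list for GFP day 0 and 13.6% for GFP day 3. The domain held 0 peaks of GFP day 0 and 1 of GFP day 3, so little or no overlap was possible. With the crossed lists exchanged the day 0 share was 0 of 25 peaks, against 13.6% over the list. In all, 11 of 25 domain peaks (44.0%, 26.7 to 62.9%) overlapped no other list, against 21.3% over the list. Whether the domain differs from the rest of the genome in these shares was not tested.

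**Figure D2:**
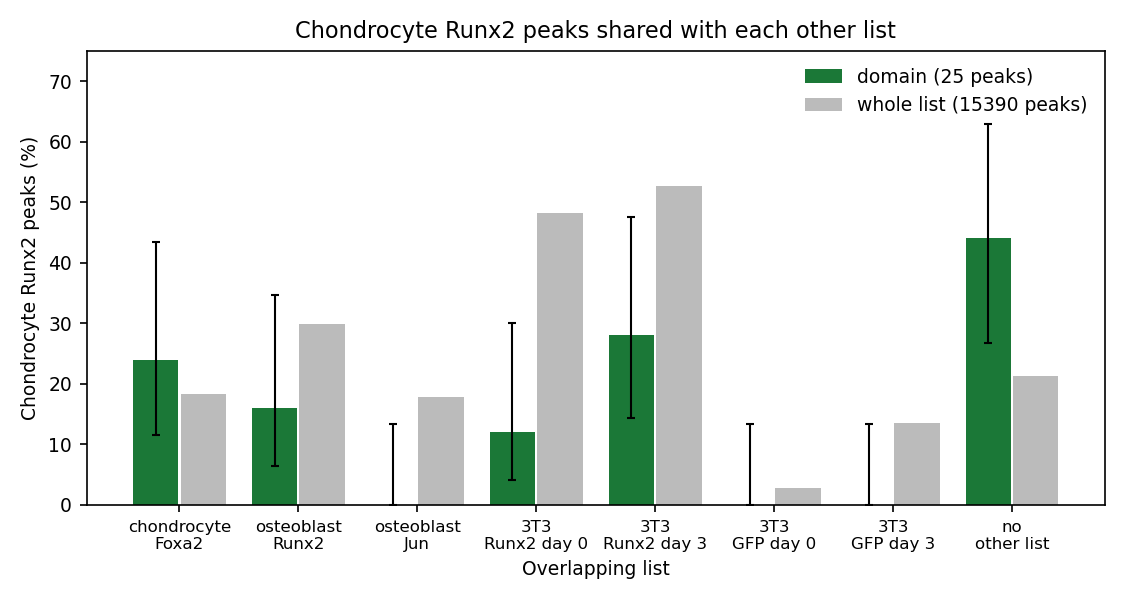
Share of chondrocyte Runx2 peaks (y axis, percent) that overlap each other list, or none of them (x axis), for the 25 peaks of the domain (green, with Wilson 95% intervals) and all 15390 peaks (grey). The domain shares with 3T3 Runx2 are 12.0% at day 0 and 28.0% at day 3, against 48.2% and 52.7% over the list.

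Counted from the other lists, sharing with chondrocyte Runx2 varied. The domain was selected on its many peaks, which by itself favours such overlaps, so nothing is read from these shares. Chondrocyte Runx2 overlapped 6 of 17 Foxa2 peaks (35.3%, 17.3 to 58.7%; 19.2% over the Foxa2 list), 4 of 5 osteoblast Runx2 peaks (80.0%, 37.6 to 96.4%; 45.2% over that list) and 8 of 13 peaks of 3T3 Runx2 day 3 (61.5%, 35.5 to 82.3%; 18.4% over that list). It also overlapped 4 of 5 peaks of 3T3 Runx2 day 0 (27.2% over that list), and 0 of 1 with the crossed lists exchanged. For each day, 2 of the overlapped 3T3 Runx2 peaks lay at the same site (chr7:86293704-86294135) and met the same chondrocyte peak, so they are not separate cases. All 5 peaks of 3T3 Runx2 day 0 overlapped 3T3 Runx2 day 3 (81.8% over the list), while 5 of 13 peaks of day 3 overlapped it (38.5%, 17.7 to 64.5%; 51.4% over the list). The median gap from a Foxa2 peak to the nearest chondrocyte Runx2 peak was 0.351 kb in the domain, where 10 of 17 lay within 1 kb, against 15.4 kb and 27.7% over the Foxa2 list. These values include the 6 overlapping peaks, whose gap is 0. The 11 Foxa2 peaks without overlap had a median gap of 1.38 kb (0.122 to 11.2 kb), and 4 of them lay within 1 kb. Since Runx2 peaks were dense in this domain by choice, a short gap follows in part from that density: the median spacing of neighbouring chondrocyte Runx2 peaks was 8.95 kb here and 49.5 kb over the list. The nearest Jun peak was far from any of the 25 chondrocyte Runx2 peaks, with gaps of 43.5 to 207 kb and a median of 124 kb, against a median of 20.7 kb over the list. The domain held 0 Jun peaks, so each of these gaps had to reach outside it and adds nothing to that count.

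The lists also differed in which part of the domain they filled. In 6 equal parts of 50 kb from far upstream to beyond the gene, chondrocyte Runx2 had 3, 6, 7, 5, 2 and 2 peaks. Foxa2 had 0, 2, 8, 5, 2 and 0 peaks, and so listed no peak in the outermost parts. It was richest in the third part, from 98 to 48 kb before the start. The fourth part, from there to 2 kb after the start, came next. 3T3 Runx2 day 3 had 3, 5, 1, 0, 1 and 3 peaks, and 3T3 Runx2 day 0 had 2, 1, 0, 0, 0 and 2. Most 3T3 peaks thus fell in the far upstream parts and the last part, where Foxa2 had 0 or 2 peaks. The longest stretch between 3T3 Runx2 peaks covered 117 kb (chr7:86108988-86225829), from 89.0 kb before the start to 27.8 kb after it. Besides the 11 chondrocyte Runx2 peaks it held 15 Foxa2 peaks, 1 osteoblast Runx2 peak and 0 Jun or GFP peaks. Of the 11 Runx2 peaks 5 overlapped Foxa2, as did 1 of the 14 outside the stretch. The stretch was identified after the values were seen and held 15 of the domain's 17 Foxa2 peaks. Nothing is read from this contrast, since more overlap inside follows in part from where the Foxa2 peaks lie.

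**Figure D3:**
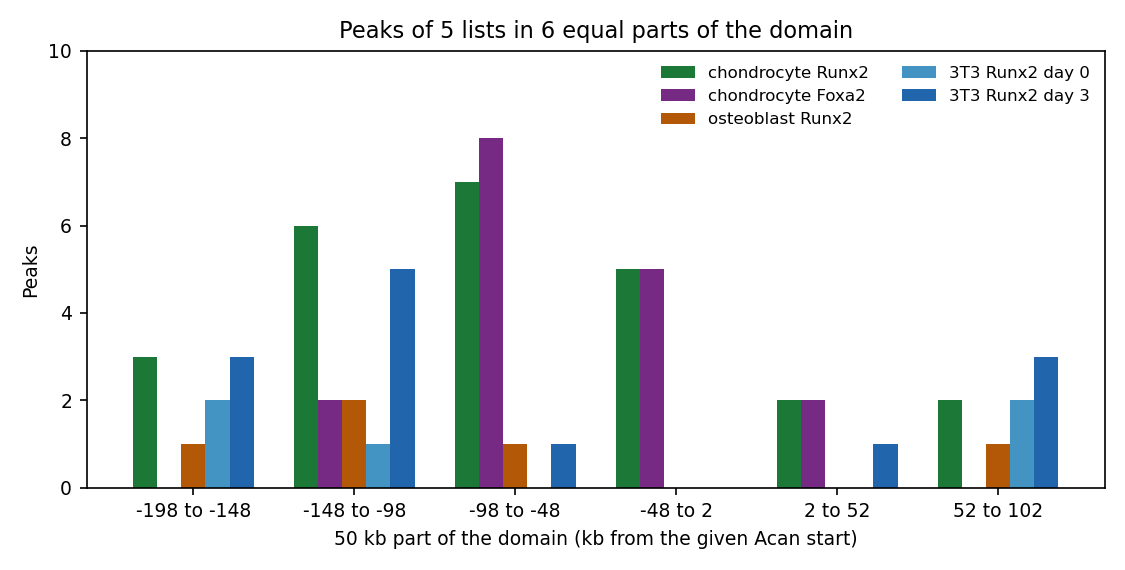
Number of peaks (y axis) of the 5 lists with more than 1 peak in the domain, in 6 parts of 50 kb given by their distance from the start of Acan (x axis, kb). Foxa2 reaches 8 peaks in the part that begins 98 kb before the start, where 3T3 Runx2 day 3 has 1 and 3T3 Runx2 day 0 has 0.

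Few places in the genome held as many chondrocyte Runx2 peaks. The domain was selected on its number of peaks, so a high rank follows from that choice and is only a description. On a fixed grid, 0 of 8806 windows of 300 kb held 25 or more (0% of windows; the mean was 1.75 and the highest 21). With each list cut to its first 50% of rows, the domain held 7 such peaks, and 75 windows held 7 or more. A grid puts windows at a disadvantage against a domain placed to fit, so windows were also begun at each peak. Then 3 separate windows reached 25: 1 on chromosome 1 with 27 (chr1:92530407-92830406), the one at Acan with 26 (chr7:86035682-86335681) and 1 on chromosome 8 with 26 (chr8:129109525-129409524). These windows differed in the other lists. Beside 26 chondrocyte Runx2 peaks the Acan window held 5 of osteoblast Runx2, 0 of Jun and 13 of 3T3 Runx2 day 3. The window on chromosome 1 held 11, 12 and 47 of the same lists, and that on chromosome 8 held 16, 31 and 50. Foxa2 counts were closer, with 18 at Acan, 13 on chromosome 1 and 14 on chromosome 8. For Foxa2 alone, 17 of 8806 grid windows (0.193%) held as many peaks as the domain or more. With windows begun at each peak, 23 separate windows held at least as many Foxa2 peaks, and the highest held 78.

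The same comparison was made with the 14 grid windows outside the domain that held at least 15 chondrocyte Runx2 peaks, a limit set after the counts were seen. Jun had between 1 and 32 peaks in these windows (median 8), against 0 in the domain, and 51.2% of all 8806 windows held no Jun peak. 3T3 Runx2 day 3 had a median of 31.0 peaks (range 5 to 76), against 13, and 13 of the 14 windows had as many or more. 3T3 Runx2 day 0 had a median of 22 (range 1 to 61), against 5. Osteoblast Runx2 had a median of 8 (range 2 to 15), against 5. Foxa2 had a median of 9 (range 1 to 25), against 17, and 2 of the 14 windows had as many or more. The domain thus stood at the high end of these windows for Foxa2 and towards the low end for 3T3 Runx2, and below all of them for Jun. These windows lay on the fixed grid while the domain was placed to fit, so the counts were not taken in like ways. The combination was not particular to Acan. A window on chromosome 6 (chr6:144000001-144300000), named after its values were seen, held 15 chondrocyte Runx2 and 15 Foxa2 peaks beside 2 of osteoblast Runx2, 1 of Jun, 1 of 3T3 Runx2 day 0 and 5 of day 3.

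Domain peaks of the lists also took different places in their files. What the order of rows in a file stands for is not given in the sources used here. The 25 chondrocyte Runx2 peaks had a median place of 61.3% of the way through their list (range 2.59 to 97.9%), with 2 in the first 25% of rows and 9 in the last. The 17 Foxa2 peaks had a median place of 28.1% (5.11 to 90.1%), with 8 in the first 25% of rows and 3 in the last. Osteoblast Runx2 peaks lay between 44.8 and 93.5% of the way, and 3T3 Runx2 day 3 peaks between 26.8 and 77.7%. Foxa2 peaks of the domain thus stood early in their file more often than its Runx2 peaks did, a difference that was not tested, and only 7 of 25 chondrocyte Runx2 peaks fell in the first 50% of rows. Widths were near those of the lists, with a median of 154 bp for chondrocyte Runx2 (136 bp over the list) and 140 bp for Foxa2 (120 bp).

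**Figure D4:**
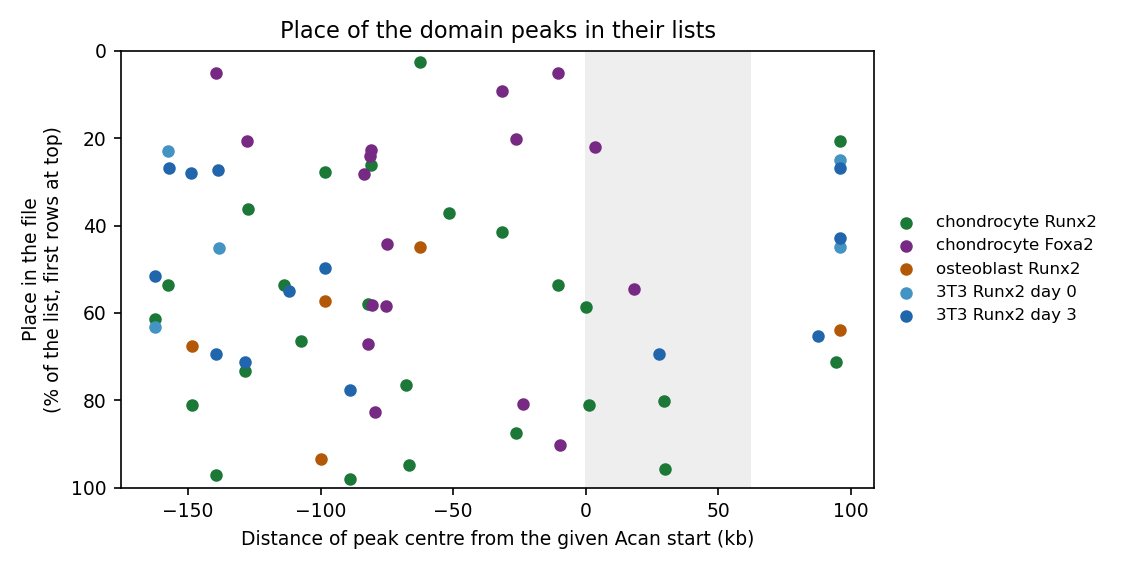
Each point is a domain peak by its distance from the start of Acan (x axis, kb, with the gene shaded) and its place in its file (y axis, percent of rows, first rows at the top). Foxa2 points gather near the top, with 8 of 17 in the first 25% of rows, and chondrocyte Runx2 points lower, with 2 of 25 there.

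Both bounds of the domain fell between peaks. On the upstream side the outermost peak inside was 3T3 Runx2 day 3 at chr7:86035613-86035794, 35.7 kb from the bound, and the nearest outside was a Jun peak at chr7:85992054-85992209, 7.87 kb beyond it. On the other side the outermost inside was 3T3 Runx2 day 3 at chr7:86293956-86294135, 5.95 kb from the bound, and the nearest outside was a Foxa2 peak at chr7:86316931-86317023, 17.0 kb beyond it.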

How the data were processed

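ChIP-seq peak lists of 8 groups were used. Per the deposited files, each gives chromosome, start and end in 3 columns with no score or other value. The submitters' processing notes name build mm9 and the tools Bowtie and DiffBind, with no step for either. Peak caller, threshold, control, pooling of libraries and depth are not given in the sources used here. ATAC-seq, input and IgG libraries were not analysed here.

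Peaks were assigned by centre to the domain, and its members and the lists were chosen with earlier results of these data known. Overlap meant at least 1 bp, and windows of 300 kb ran to the last peak of each chromosome. Distances were taken from the given gene start, which is approximate. Coordinates are printed 1-based. The sites named are those with at least 4 lists, those with both chondrocyte Runx2 and Foxa2, and the widest, the earliest in file order and the nearest to the gene start of each list. Other sites named were chosen after their values were seen. The planned motif search in peaks and counts at other cartilage genes were not run, since no mm9 genome or annotation was used here. Promoter sequence came from RefSeq (GRCm38.p6). No test was made. Overlaps were tested on simulated data and checked against bedtools 2.31.1 (0 of 56 pairs differed). Python 3.11.15, NumPy 2.4.6, SciPy 1.17.1 and matplotlib 3.10.9 were used.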

Additional observations from a re-analysis of the deposited data

How the results depend on the processing

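The 119 alternative values of 23 results included 97 within the counting interval of a share or within 1.5 times a count. With lists cut to their first 50% of rows the domain held 7 chondrocyte Runx2, 10 Foxa2, 1 osteoblast Runx2, 6 3T3 Runx2 day 3 and 0 GFP day 3 peaks. The osteoblast peak left there overlapped chondrocyte Runx2 (100%) and lay before the gene (100%), and 75 windows held 7 or more chondrocyte Runx2 peaks. In the wider 50% the counts were 16 for chondrocyte Runx2, 2 for osteoblast Runx2, 1 for 3T3 Runx2 day 0 and 3 for day 3, and chondrocyte Runx2 overlapped osteoblast Runx2 and 3T3 Runx2 day 3 at 6.25% each. Shortened lists hold fewer peaks by construction. Chondrocyte Runx2 had 14 peaks with primary lists cut to 10241 rows. Exchange of the crossed lists gave 1 peak for Runx2 day 0, 5 for GFP day 3 and a day 0 share of 0. Widening by 50 kb added the Jun peak (1) and a second GFP day 3 peak (2). Sites with at least 4 lists numbered 2 when gaps of up to 500 bp were bridged. Windows begun at each peak, chosen after seeing the data, gave 3 with as many chondrocyte Runx2 peaks as the domain. No paired analysis was possible because each group had 1 list, and for the same reason no replicate could be left out.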
